A study of Mus musculus with 6 samples.

Results

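The 9 genes described here, *Abcd2*, *Abcd3*, *Ehhadh*, *Hsd17b4*, *Acaa1a*, *Acaa1b*, *Crot*, *Cat* and *Pex11a*, carry fatty acids through oxidation in the peroxisome. They were taken by name from the expression tables of a mouse liver RNA-Seq study, and all 9 were present among 21528 genes. WT mice and TRIM24 C52/55A knockin mice, both C57BL/6 and 5 months old, were fed a high-fat diet (HFD, 60% fat) for 3 months, and the liver of 3 mice per genotype was sequenced. The values of a gene are given in the order of replicates 1, 2 and 3, and TRIM24 C52/55A mice are called knockin mice. TRIM24 is an E3-ligase, an enzyme that attaches ubiquitin to other proteins, and the knockin exchanges a pair of cysteines in the endogenous protein for alanine. Per the methods of the study, which give the background as C57Bl/6J, homozygous knockins and WT littermates came from crosses of heterozygotes. The mutation was therefore carried in the germline and was not limited to hepatocytes. Every mouse received the HFD, so no value here speaks to another diet.

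Peroxisomes shorten very long-chain, branched and dicarboxylic fatty acids that mitochondria handle poorly. ABC transporters of the peroxisomal membrane bring in the acyl-CoA, an oxidase starts the cycle and releases hydrogen peroxide, a bifunctional enzyme hydrates and dehydrogenates the chain, and a thiolase cuts off acetyl-CoA. Catalase removes the peroxide, and carnitine acyltransferases prepare the shortened chains to leave. In rodent liver many of these genes are known targets of PPARα, the nuclear receptor through which fibrates make peroxisomes multiply.

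Levels are FPKM, the fragments of a gene scaled to its transcript length and to the library, so levels of different genes can be set side by side. FPKM hold no total count. The spacing of the lowest values gave a rough estimate of depth, as the worth of 1 fragment per kilobase. It was 0.0584 to 0.0598 FPKM in WT and 0.0634 to 0.0672 FPKM in knockin libraries. By this estimate every knockin library was somewhat shallower than every WT library. The FPKM of all genes summed to 644619 to 648221 in WT and 673244 to 676791 in knockin libraries. What these differences contribute to the results was not tested. At that scale *Abcd2*, the member with the lowest level, rested on about 198 to 969 fragments per library. *Trim24* had 4.85 to 5.96 FPKM in WT and 4.31 to 8.46 FPKM in knockin livers, and since the knockin exchanges codons this level does not check the labels. Hepatocyte markers summed to 12969 to 13422 FPKM in WT and 12520 to 14757 FPKM in knockin libraries over the 6 of 8 listed genes present. *Alb* and *Tf*, the other two, had no rows to analyse here. Summed markers also overlapped between genotypes for Kupffer cells (8 genes, 166 to 216 against 144 to 193 FPKM), stellate cells (8 genes, 120 to 125 against 114 to 142) and cholangiocytes (6 genes, 35.1 to 59.8 against 27.3 to 44). Those of sinusoidal endothelium did not (8 genes, 137 to 144 against 129 to 135 FPKM). The 9 adipocyte markers summed to 1913 to 2278 and 1510 to 2155 FPKM, most of it from *Car3* (means of 2056 and 1839 FPKM). The lowest of these sums, 1510 FPKM, was that of knockin replicate 2. The adipocyte genes *Adipoq*, *Plin1* and *Lep* reached 4.55, 3.32 and 3.98 FPKM in knockin replicate 2, while they were at 0 to 0.127 FPKM in the other 5 libraries. Marker by marker, limma called the hepatocyte gene *Cps1* (1 of 6 tested, log2 fold change 0.63) and the adipocyte gene *Adrb3* (1 of 7 tested, 1.86, from 2.07 to 10.3 FPKM) higher in the knockin livers, and the sinusoidal gene *Lyve1* (1 of 8, -1.26) lower. It called 0 Kupffer cell, stellate cell and cholangiocyte genes, of which 2 of 8, 3 of 8 and 3 of 5 tested had an unadjusted p under 0.05, against 23.6% of all genes tested. All 8 Kupffer cell genes had negative log2 fold changes, from -0.38 to -0.10 with a median of -0.26. So had 8003 of the 12225 genes tested. The part of these shifts in the results was not tested. In bulk liver, fewer cells of a type and less RNA per cell cannot be told apart.

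The genotypes were compared on log2(FPKM + 1) with limma, with Benjamini-Hochberg adjustment over the 12225 genes that averaged 0.5 FPKM or more. All 9 members passed that filter on low values. Fold changes are on this scale, as TRIM24 C52/55A over WT. Of the 9 genes, 6 were lower in the knockin liver at an adjusted p under 0.05, where 6.09% of all genes tested were called lower and 7.72% in either direction. None of the 9 was higher at that threshold, against 1.64% of all genes, nor at an unadjusted p under 0.05 in limma, which 6 of the 9, all lower, and 23.6% of all genes in either direction reached. The median log2 fold change was -0.41 over the 9 members and -0.07 over all genes tested. The groups did not overlap for 7 of the 9, with every knockin library below every WT library, as was so for 22.5% of all genes tested. For 6.31% of all genes every knockin library was above WT, which was so for 0 of the 9, and 28.9% did not overlap in either direction. The calls fell on the importer *Abcd2*, all 4 oxidation enzymes and *Pex11a*. *Abcd3*, *Crot* and *Cat* did not pass. The 6 calls were 4 when the libraries were rescaled by median of ratios or quantiles, losing *Ehhadh* and *Hsd17b4*. Over all genes 744 were called lower and 200 higher, which became 411 lower and 249 higher after scaling by median of ratios, and 378 lower and 255 higher after quantile normalization.

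**Figure D1:**
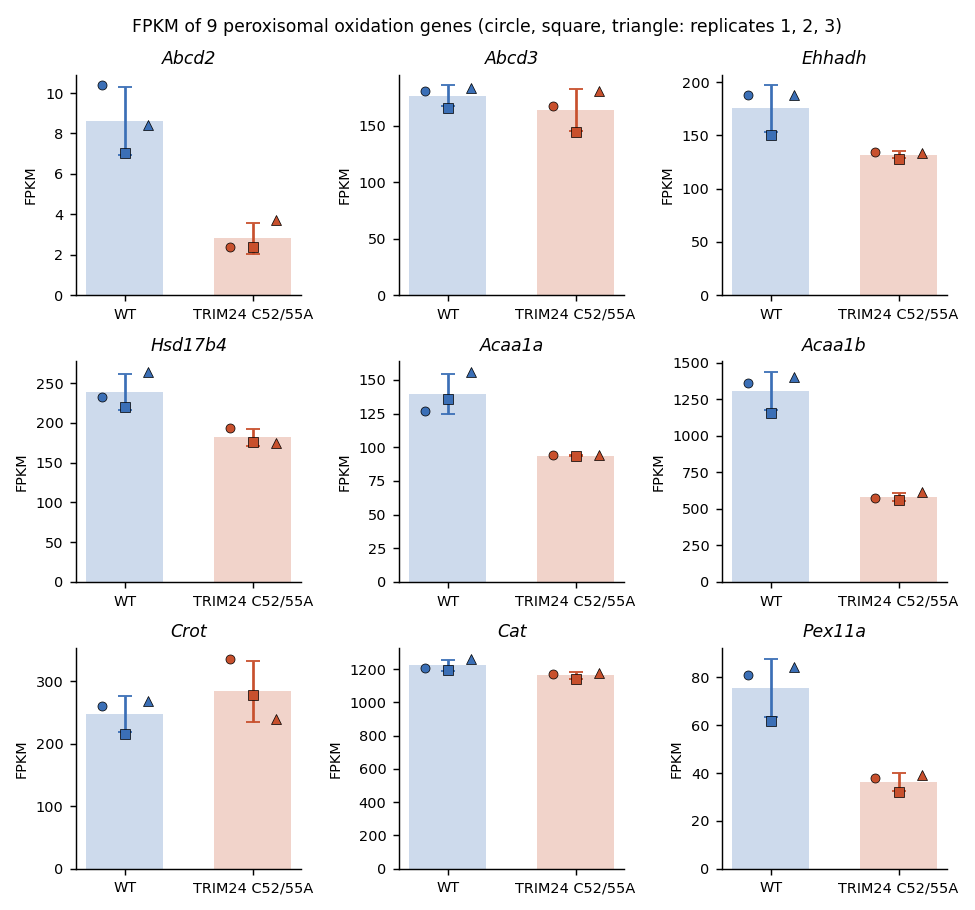
FPKM (linear axes from 0) of the 9 genes in each liver, WT in blue and TRIM24 C52/55A in red. Bars are means, error bars SD (n = 3), and circle, square and triangle mark replicates 1, 2 and 3. *Abcd2*, *Acaa1b* and *Pex11a* stand furthest apart between genotypes, whereas the points of *Abcd3* and *Crot* overlap.

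At the entry to the peroxisome, *Abcd2* fell and *Abcd3* did not pass the test. *Abcd2* (ENSMUSG00000055782, chromosome 15, 91145871 to 91191799, GRCm38) encodes ALDRP, which imports very long-chain and polyunsaturated acyl-CoA. It had 10.4, 7.05 and 8.44 FPKM in WT and 2.37, 2.37 and 3.7 FPKM in knockin livers. The highest knockin liver was below the lowest WT liver, and the mean was 32.6% of the WT mean. The log2 fold change was -1.34 (SE, the standard error, 0.17, limma adjusted p = 0.00489), the largest of the 9 on this scale. *Abcd2* is also known as a gene of fat tissue. Knockin replicate 2, the library with the highest *Adipoq*, *Plin1* and *Lep*, and replicate 1 both had 2.37 FPKM. The part of adipocyte transcripts in the values was not tested.

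*Abcd3* (ENSMUSG00000028127, chromosome 3, 121758774 to 121815302) encodes PMP70, the abundant importer of branched and dicarboxylic acyl-CoA and of bile acid intermediates. Its FPKM were 181, 166 and 183 in WT and 167, 144 and 181 in knockin livers. The groups overlapped. The log2 fold change was -0.11 with a 95% confidence interval from -0.33 to 0.11 (limma adjusted p = 0.548), and it was 0.05 with quantile normalization. The levels of the importers were far apart: *Abcd3* averaged 177 ± 9.2 FPKM and *Abcd2* 8.62 ± 1.67 FPKM in WT (SD, n = 3).

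Within the oxidation cycle each of the 4 enzyme genes was lower in the knockin liver, from the bifunctional enzymes, with the smaller changes, to the thiolases.

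*Ehhadh* (ENSMUSG00000022853, chromosome 16, 21761287 to 21787807) encodes the L-bifunctional enzyme, which acts on straight-chain and dicarboxylic acids. Its FPKM were 188, 150 and 188 in WT and 134, 128 and 133 in knockin livers. WT replicate 2 came closest to the knockin livers, which lay within a narrow range. The mean fell to 75% of WT, a log2 fold change of -0.41 (SE 0.10, limma adjusted p = 0.0482). That call was near the threshold and held in 5 of 15 alternative settings, with adjusted p-values from 0.0215 to 0.21. *Hsd17b4* (ENSMUSG00000024507, chromosome 18) encodes the D-bifunctional enzyme, which serves very long-chain and branched acids and bile acid synthesis. Its FPKM were 232, 220 and 264 in WT and 194, 176 and 175 in knockin livers. Again the groups did not overlap. The mean fell to 76.1% of WT, a log2 fold change of -0.39 (SE 0.09, limma adjusted p = 0.0373), which held in 4 of 15 alternatives, with adjusted p-values from 0.0183 to 0.155.

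The L- and D-enzymes catalyse the same steps on different stereoisomers, so their relative level was compared in each liver. The log2 ratio of *Ehhadh* to *Hsd17b4*, each as FPKM + 1, was -0.44 ± 0.13 in WT and -0.46 ± 0.07 in knockin livers (SD, n = 3 each). The difference of -0.02 was within the spread (exact permutation test, two-sided, p = 0.9). Its sign turned without WT replicate 1 (0.06) or without knockin replicate 1 (0.02).

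*Acaa1b* and *Acaa1a* encode the peroxisomal 3-ketoacyl-CoA thiolases B and A, which end each cycle. They lie near each other on chromosome 9, *Acaa1b* (ENSMUSG00000010651) from 119148023 to 119157093 on the - strand and *Acaa1a* (ENSMUSG00000036138) from 119339676 to 119350299 on the + strand. *Acaa1b* had 1359, 1156 and 1403 FPKM in WT and 574, 563 and 615 FPKM in knockin livers. Every knockin liver was far below the lowest WT liver. The mean fell to 44.7% of WT, with a log2 fold change of -1.16 (SE 0.09, limma adjusted p = 7.25e-04), the smallest adjusted p of the 9. *Acaa1a* had 127, 136 and 156 FPKM in WT and 94, 93.5 and 93.9 FPKM in knockin livers. The 3 knockin livers were nearly equal, and all lay below WT. The mean fell to 67.1% of WT, with a log2 fold change of -0.57 (SE 0.09, limma adjusted p = 0.0102). Both calls held in 15 of 15 alternatives.

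The thiolase genes are close copies, so fragments can be divided between them. The coding sequences of Acaa1a-201 and Acaa1b-201 in GENCODE M21 are both 1275 bases long, differ at 44 bases (96.5% identity) and share an identical run of 327 bases. Of all windows of 100 coding bases, 24.1% were identical in both, as were 38.1% of windows of 50 and 15.8% of windows of 150 bases. The 60 coding bases with the most differences, 259 to 318 from the start codon, span exons 2 to 3 in either transcript and show what tells the copies apart. Capitals mark the 11 bases that differ.
Acaa1a: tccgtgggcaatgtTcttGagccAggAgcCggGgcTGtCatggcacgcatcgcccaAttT
Acaa1b: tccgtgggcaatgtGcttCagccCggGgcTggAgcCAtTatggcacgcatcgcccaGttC

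The *Acaa1a* window lies at chr9:119341912-119342775 on the + strand and the *Acaa1b* window at chr9:119155750-119156597 on the - strand, each with an intron between its exons (GRCm38). The sum of both thiolases is less exposed to how shared fragments were divided. It was 1446 ± 138 FPKM in WT and 678 ± 27.5 FPKM in knockin livers (SD, n = 3 each), 46.9% of WT. *Acaa1b* made up 91.4%, 89.5% and 90% of the sum in WT and 85.9%, 85.8% and 86.8% in knockin livers. The log2 ratio of *Acaa1b* to *Acaa1a* was 3.41, 3.08 and 3.16 in WT and 2.60, 2.58 and 2.70 in knockin livers. The ratio was lower in every knockin liver than in every WT liver, by a mean of -0.59 on the log2 scale (p = 0.1 in a two-sided exact permutation test, which cannot go lower with 3 against 3). The files also give these genes wide intervals, 54.6 kb for *Acaa1b*, which takes in *Dlec1*, and 224 kb for *Acaa1a*, which takes in 7 other annotated genes. *Dlec1* averaged 0.122 FPKM in WT livers. Of the genes inside the *Acaa1a* interval, *Xylb* averaged 52.8 and 46.4 FPKM in WT and knockin livers, and *Myd88* 9.67 and 8.11 FPKM. Whether their fragments entered the values of *Acaa1a* was not tested.

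**Figure D2:**
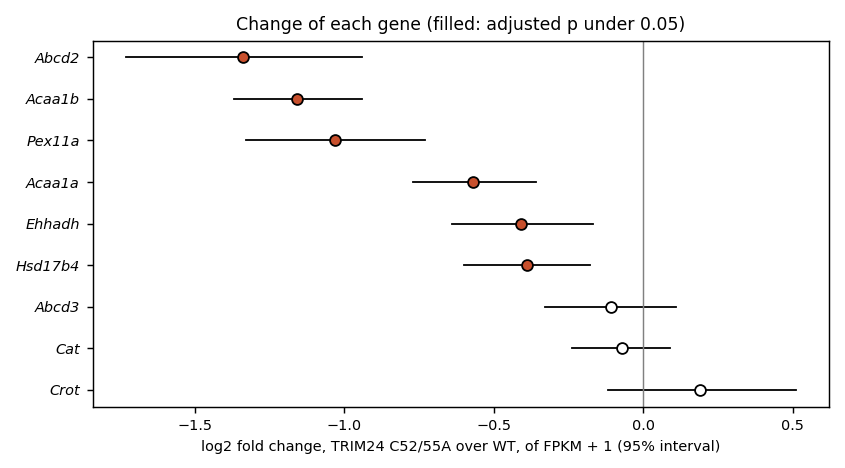
Log2 fold change of FPKM + 1, TRIM24 C52/55A over WT, for each of the 9 genes, with 95% confidence intervals from limma (n = 3 per genotype). Filled points had an adjusted p under 0.05; the 6 filled points run from -1.34 for *Abcd2* to -0.39 for *Hsd17b4*, and the intervals of *Abcd3*, *Cat* and *Crot* cross 0.

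On the way out of the peroxisome, *Crot* (ENSMUSG00000003623, chromosome 5, 8966033 to 8997324) encodes carnitine O-octanoyltransferase, which turns medium-chain acyl-CoA into carnitine esters. Its FPKM were 260, 215 and 268 in WT and 336, 278 and 239 in knockin livers. It was the only member whose mean was above WT, and knockin replicate 3 lay within the WT range. The log2 fold change was 0.19 with an interval from -0.12 to 0.51 (limma adjusted p = 0.458). *Crat*, the acetyltransferase that acts on the shortest chains in peroxisomes and mitochondria and was not among the 9, fell from 45.1 ± 9.62 to 22.2 ± 4.46 FPKM (SD, n = 3 each; log2 fold change -0.98, limma adjusted p = 0.0181), but did not pass without WT replicate 1 (adjusted p = 0.069) or 3 (0.0721).

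*Cat* (ENSMUSG00000027187, chromosome 2, 103453849 to 103485160) encodes catalase, the enzyme that breaks down the hydrogen peroxide made by the oxidases. Its FPKM were 1208, 1196 and 1262 in WT and 1169, 1139 and 1178 in knockin livers. The groups stood apart by a small margin, with the knockin mean at 95.1% of WT. The log2 fold change was -0.07 with an interval from -0.24 to 0.09 (limma adjusted p = 0.608), about the median of all genes tested, and it was 0.03 with median-of-ratios scaling.

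*Pex11a* (ENSMUSG00000030545, chromosome 7, 79735957 to 79743131) encodes a membrane protein that elongates peroxisomes before they divide and is induced by peroxisome proliferators. Its FPKM were 80.9, 61.8 and 84.3 in WT and 37.9, 32.1 and 39.1 in knockin livers. The mean fell to 48.1% of WT, with no overlap. The log2 fold change was -1.03 (SE 0.13, limma adjusted p = 0.0048) and passed in 15 of 15 alternatives. Its relative *Pex11g* averaged 22.6 and 22.7 FPKM in WT and knockin livers and did not pass (log2 fold change 0.01). Single-gene exact permutation tests on FPKM gave p = 0.1, the smallest that 3 against 3 allow, for the 7 members without overlap, and p = 0.4 for *Abcd3* and *Crot*.

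Ranked by mean level, *Acaa1b* and *Cat* led in WT with 1306 ± 131 and 1222 ± 35.4 FPKM (SD, n = 3), and their ranges overlapped. *Crot* and *Hsd17b4* followed with overlapping ranges around 248 and 238 FPKM, then *Abcd3*, *Ehhadh* and *Acaa1a*, each overlapping the next. *Pex11a* at 75.6 ± 12.1 FPKM and *Abcd2* stood apart below them. In the knockin liver *Cat* led alone at 1162 ± 20.5 FPKM, and *Acaa1b* was second at 584 ± 27.4 FPKM. The rest kept their order, and of the neighbours in it only *Hsd17b4* and *Abcd3* had ranges that overlapped. Among mice of 1 genotype, WT replicate 2 was the lowest WT liver for 8 of the 9 genes, as it was for 39.7% of all genes tested, and WT replicate 3 the highest for 8, against 40.8% of all. Knockin replicate 2 was the lowest knockin liver for 7 of the 9 and for 27.5% of all genes. The highest was knockin replicate 1 for 4 members and replicate 3 for 5, against 21.1% and 31.1% of all genes. Knockin replicate 2 is the library with the highest *Adipoq*, *Plin1* and *Lep*, though not with the highest sum of adipocyte markers. Without it 4 of the 9 members were called lower, as was also the count without knockin replicate 1 or 3, or without WT replicate 1 or 3. The same 4 genes, *Abcd2*, *Acaa1b*, *Pex11a* and *Acaa1a*, passed in all of these.

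The wider set of peroxisomal genes was taken from lists written from general knowledge. For each list, the shares over all genes tested were 6.09% called lower and 1.64% called higher. Of 22 other genes of peroxisomal fatty acid oxidation, 19 were tested, 8 fell and 1 rose at an adjusted p under 0.05 (limma, and 12 in either direction at an unadjusted p under 0.05, where 23.6% of all genes tested lay), with a median log2 fold change of -0.23. Without WT replicate 1 or 3, 4 of them fell, and without knockin replicate 1, 5. *Eci3*, *Acot5* and *Acot6* were too low to test. The largest fall was in *Acot3*, a peroxisomal acyl-CoA thioesterase, from 10.6 ± 2.93 to 1.62 ± 1.03 FPKM (SD, n = 3 each; log2 fold change -2.21, adjusted p = 0.00774). *Acot4*, the neighbouring succinyl-CoA thioesterase and a close relative, followed at -1.24 (limma adjusted p = 0.0131), and did not pass without WT replicate 3 (adjusted p = 0.0571). *Nudt7* was the gene that rose. It encodes a hydrolase that degrades coenzyme A and its esters in the peroxisome, and it went from 106 ± 24.1 to 246 ± 49.6 FPKM (SD, n = 3 each; log2 fold change 1.21, limma adjusted p = 0.0101). Without knockin replicate 1 it no longer passed (adjusted p = 0.0508).

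Other peroxisomal genes were counted in the same way, and whether these lists differ from the oxidation genes was not tested. Of 27 other matrix and membrane genes tested, 4 fell and 0 rose in limma (12 at an unadjusted p under 0.05 in either direction, against the same 23.6%), with a median log2 fold change of -0.11. The 4 were *Aldh3a2*, the fatty aldehyde dehydrogenase (351 ± 50.8 to 164 ± 18 FPKM, SD, n = 3 each; log2 fold change -1.09), *Gstk1*, a glutathione transferase of peroxisomes and mitochondria (-0.88), *Hao2*, a hydroxyacid oxidase (-1.03), and *Tysnd1*, the protease that trims imported enzymes (-0.43). The calls of *Aldh3a2* and *Gstk1* held in 15 of 15 alternatives, that of *Tysnd1* in 5 of 15, and that of *Hao2* in 6 of the 13 in which it was tested. *Hao2* was at low level, 1.46 ± 0.968 and 0.148 ± 0.0508 FPKM in WT and knockin livers (SD, n = 3 each), and its log2 fold change was -2.48 with a pseudocount of 0.1. The count was 2 without WT replicate 2 or 3 and without knockin replicate 1 or 3. Of the 27, 10 were lower in every knockin liver than in every WT liver, and 1 was higher. Over all genes tested, the shares were 22.5% and 6.31%. The higher one was *Ephx2*, the soluble epoxide hydrolase, which did not pass (log2 fold change 0.26, limma adjusted p = 0.0922). Of 15 peroxins, the proteins that build the organelle and import its contents, 4 fell and 0 rose (limma; 7 at an unadjusted p under 0.05, against 23.6% of all genes), with a median of -0.18. They were *Pex19* (log2 fold change -0.48), *Pex14* (-0.40), *Pex16* (-0.40) and *Pex5* (-0.35). In other settings, 0 peroxins passed with quantile normalization and without any 1 of WT replicates 1, 2 and 3 or knockin replicate 1, and 1 with the replicate number as a block.

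**Figure D3:**
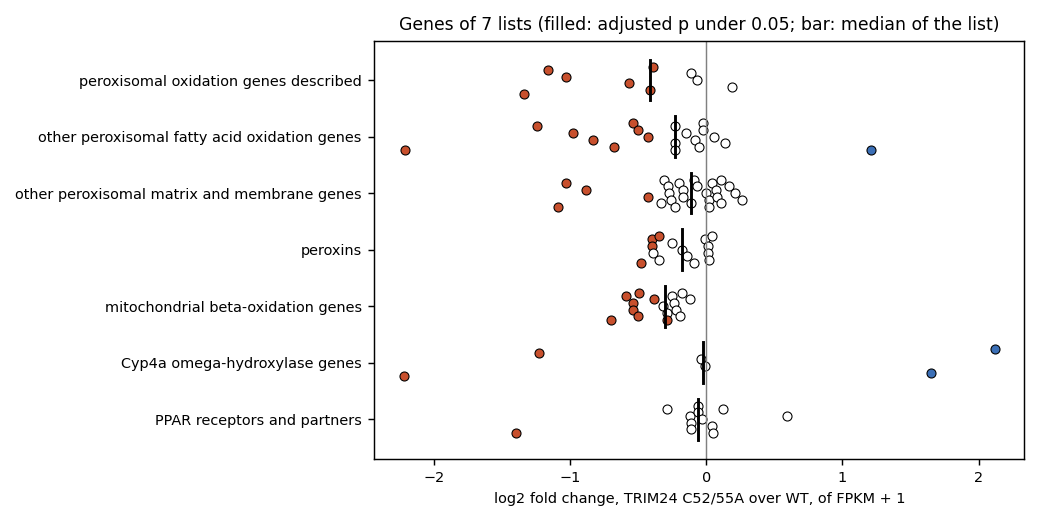
Log2 fold change of FPKM + 1, TRIM24 C52/55A over WT, for each gene tested in 7 lists; each point is 1 gene, filled red (lower) or blue (higher) at an adjusted p under 0.05, and black bars are medians. The 9 genes described here have a median of -0.41, the peroxins -0.18, and *Nudt7* at 1.21 is the single blue point among peroxisomal genes.

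Mitochondria and microsomes share fatty acid oxidation with the peroxisome. Beside the counts below, 6.09% of all genes tested were called lower and 1.64% higher. Of 16 mitochondrial beta-oxidation genes 8 fell and 0 rose (limma; 14 at an unadjusted p under 0.05, against 23.6% of all genes), with a median log2 fold change of -0.31 and a range from -0.70 for *Hadh* to -0.12. *Eci1* (-0.59), *Acadl* (-0.54), *Slc25a20* (-0.54) and *Cpt1a* (-0.50), which admits long chains to the mitochondrion, were among the 8. The calls of *Eci1* and *Acadl* held with any 1 library left out. Without knockin replicate 1 those of *Hadh*, *Slc25a20* and *Cpt1a* were lost (limma adjusted p = 0.0565, 0.0625 and 0.0706). So were those of *Hadh* and *Cpt1a* without WT replicate 1 (0.0513 and 0.0724), and of *Slc25a20* and *Cpt1a* without WT replicate 3 (0.0556 and 0.0679). None of these 16 reached the change of *Abcd2*, *Acaa1b* or *Pex11a*. *Hadh*, *Eci1*, *Acadl*, *Slc25a20* and *Cpt1a* fell more than the members *Ehhadh* (-0.41) and *Hsd17b4* (-0.39). All 16 were lower, and for 15 every knockin liver was below every WT liver, against 22.5% of all genes tested. Whether the lists differ was not tested. Of the *Cyp4a* genes, whose omega-hydroxylases make dicarboxylic acids that peroxisomes shorten, *Cyp4a14* and *Cyp4a10* fell (log2 fold changes -2.22 and -1.23) while *Cyp4a12a* and *Cyp4a12b* rose (1.65 and 2.12). The call of *Cyp4a10* held in 7 of 15 alternatives and was lost without any 1 of WT replicates 1, 2 and 3 or knockin replicate 1. Among 12 PPAR receptors and partners, *Pparg* fell (-1.40, limma adjusted p = 0.00491) and no other gene passed. That is 8.33% of them, near the 7.72% of all genes tested that passed in either direction. *Ppara*, which encodes PPARα, had 28, 34.8 and 27.1 FPKM in WT and 33.4, 19.8 and 21.2 FPKM in knockin livers. Its log2 fold change was -0.29 with an interval from -0.72 to 0.14 (limma adjusted p = 0.407), and the groups overlapped.

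For each of the 6 members that passed, the genes with the nearest pattern were sought among all others tested, by the root-mean-square distance of log2(FPKM + 1) centred on each gene's mean over the 6 libraries. *Slc25a10*, the mitochondrial dicarboxylate carrier, was the nearest gene to both *Acaa1b* (distance 0.058) and *Pex11a* (0.089). *Chpt1*, a cholinephosphotransferase, came next for *Acaa1b* (0.061), and *Sema5b* for *Pex11a* (0.091). The nearest to *Abcd2* were the uncharacterised *1810055G02Rik* (0.111) and a gene listed as *RP23-218K15.5* (0.117). The others were *Tmem237* and *Commd6* for *Ehhadh* (0.028 and 0.048), *Sh3bgrl* and *Pigq* for *Hsd17b4* (0.030 and 0.035) and *Gm15318* and *Pole4* for *Acaa1a* (0.036 and 0.049). *Tmem237* was at low level, 1.57 and 0.943 FPKM in WT and knockin livers. With a pseudocount of 0.1 its log2 fold change was -0.66, against -0.41 for *Ehhadh*. *Tmem237* and *Commd6* did not pass (limma adjusted p = 0.0792 and 0.0501). With 6 libraries in 2 groups, a small distance mostly reflects a difference between genotypes of similar size.

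The 250 bases before the start site were searched in the RefSeq promoter sequences (GRCm38.p6) for 7 of the 9 genes. *Abcd2* and *Hsd17b4* had no entry there and were not searched. *Abcd3* had a pair of entries. By GENCODE M21 the windows of *Acaa1a* (chr9:119341044-119341293), *Crot* (chr5:8997147-8997396) and *Cat* (chr2:103485154-103485403) and 1 of *Abcd3* hold bases of an exon of the same gene, and that of *Pex11a* holds an exon of *Wdr93*, so they are not all upstream sequence. PPAR with its partner RXR is known to bind a repeat of AGGTCA with 1 base between, AGGTCANAGGTCA. Over 32851 promoters, both strands, 3.24% held this repeat with at most 2 mismatches and 14% held AGGTCA alone. Of the 7 searched only *Cat*, which did not pass the test, held either. In *Cat* the repeat has 2 mismatches and starts 204 bases before the start site. These 40 bases (chr2:103485334-103485373, - strand) are shown with AGGTCA in capitals.
Cat: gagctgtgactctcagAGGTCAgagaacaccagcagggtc

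CCAAT, the box bound by NF-Y, lay in 33.8% of promoters and in the windows of *Acaa1b*, *Ehhadh*, *Crot*, *Cat* and *Acaa1a*. In *Crot* and *Acaa1a* it lay within the annotated gene. In *Acaa1b* and *Ehhadh* it sat on the opposite strand at the same place, 38 to 34 bases before the start site. Their last 150 bases before the start are shown (chr9:119157094-119157243 and chr16:21787835-21787984, both - strand), with the box, read as ATTGG, in capitals.
Acaa1b: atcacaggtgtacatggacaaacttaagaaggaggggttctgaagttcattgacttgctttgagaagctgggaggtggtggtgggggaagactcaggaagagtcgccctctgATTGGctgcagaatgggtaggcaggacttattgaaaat
Ehhadh: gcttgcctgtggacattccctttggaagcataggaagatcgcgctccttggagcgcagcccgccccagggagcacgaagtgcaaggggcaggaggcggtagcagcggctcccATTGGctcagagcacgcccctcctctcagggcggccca

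A match is a run of letters and not a bound site, and these windows are short.

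**Figure D4:**
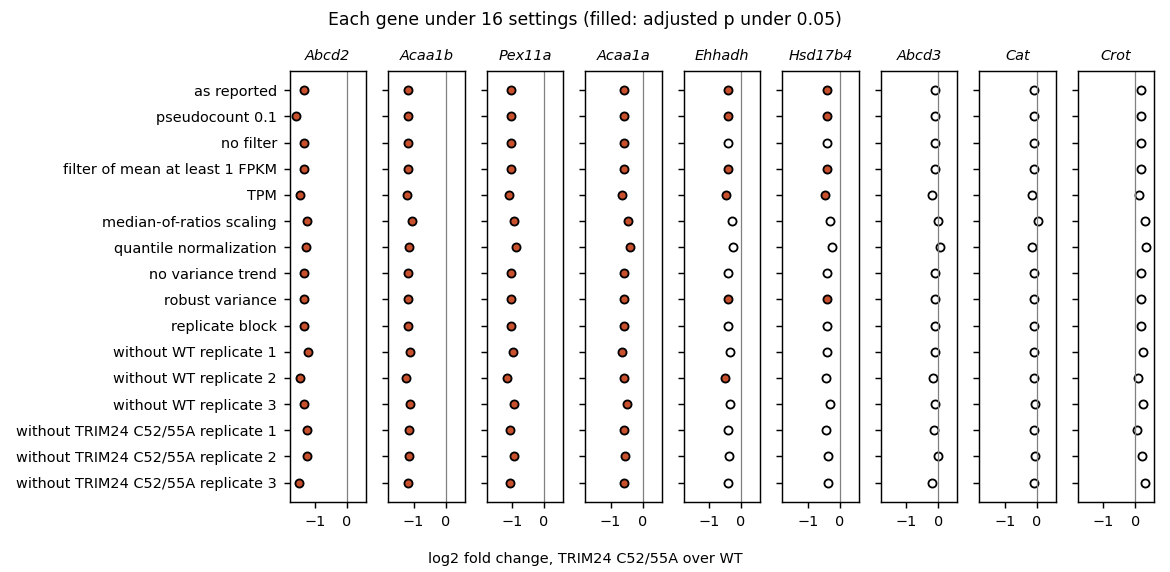
Log2 fold change of each of the 9 genes, TRIM24 C52/55A over WT, under 16 settings (rows), filled at an adjusted p under 0.05 in limma. *Abcd2*, *Acaa1b*, *Pex11a* and *Acaa1a* are filled in every row, *Ehhadh* and *Hsd17b4* in some, and *Abcd3*, *Cat* and *Crot* in none.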

How the data were processed

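RNA-Seq of liver from 3 WT and 3 TRIM24 C52/55A mice was analysed, grouped by the labels. Each mouse has 1 table of FPKM as the authors deposited it, listing genes above 0. A gene missing from some of the tables was set to 0 there. A gene in none of them, such as *Alb* or *Tf*, was not analysed here, and its absence was not read as 0. All 9 members are in every table. The submitters' processing notes name GRCm38, bcl2fastq, Salmon 0.14.0 and DESeq2 1.30.0 without saying what each did, and the step that made the FPKM is not given in the sources used here. The genotypes were compared on log2(FPKM + 1) over 12225 genes by limma 3.58.1 in R 4.3.3 (mean-variance trend, two-sided, Benjamini-Hochberg). Single values had exact permutation tests. The fit was tested on simulated data. Loci and coding sequences came from GENCODE M21 and promoters from RefSeq. Python 3.11.15, pandas 2.3.3, numpy 2.4.6 and matplotlib 3.10.9 did the rest. The 15 alternatives were other scalings, filters, pseudocounts and variance models, the replicate block, and each library left out. The rule for naming genes took all 9 members, *Ppara* and *Pparg*, at most 5 called genes per list by size of change, and the 2 nearest patterns per called member. *Pex11g*, *Ephx2*, the thiolases' neighbours and the marker genes were named after their values were seen. The members and lists were chosen with earlier results of these data known. The limma p-values set a difference between genotypes against the spread among these 3 mice per genotype. That variance was moderated over all genes tested. Some genes the rule named are not reported here.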

Additional observations from a re-analysis of the deposited data

How the results depend on the processing

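Of 15 alternatives, 4 to 6 of the 9 members were called lower and 0 higher in each, and *Abcd2*, *Acaa1a*, *Acaa1b* and *Pex11a* passed in all 15. *Ehhadh* and *Hsd17b4* lost their calls in 10 and 11. Log2 fold changes turned sign for *Abcd3* with quantile normalization (0.05) and for *Cat* with median-of-ratios scaling (0.03); the cause was not tested. The *Acaa1b* to *Acaa1a* difference ran from -0.66 to -0.49 with 1 library left out and was -0.74 with quantile normalization, and that of *Ehhadh* to *Hsd17b4* ran from -0.07 to 0.06, positive without WT replicate 1 (0.06) or knockin replicate 1 (0.02). With no filter, where 21528 genes share the adjustment, other fatty acid oxidation genes called lower and higher numbered 3 and 0, other matrix and membrane genes 2 lower, peroxins 1 lower, and all genes 252 lower and 95 higher. With median-of-ratios scaling, matrix and membrane genes numbered 2 lower and 1 higher, peroxins 2 lower and all genes 411 lower. With quantile normalization these were 2, 1, 0 and 378. TPM gave 1358 lower genes, and dropping the variance trend 2 lower peroxins. With 1 library left out, lower calls ran from 4 to 8 for other fatty acid oxidation genes (higher, 0 to 1), 2 to 4 for matrix and membrane genes, 0 to 4 for peroxins and 202 to 1041 for all genes (higher, 88 to 239). The lowest of all, 202, was without knockin replicate 1. With the replicate number as a block, 4 members were called lower, *Ehhadh* (limma adjusted p = 0.0648) and *Hsd17b4* (0.0783) no longer passing, as were 1 peroxin and 422 genes in all. No pairing of the mice by replicate number was seen. Deviations of same-numbered livers from their group means correlated at -0.123, -0.099 and 0.003 across genes, and no WT liver correlated best with its own number. With 3 livers per genotype, this measure could miss a weak pairing. FPKM keep no total count, so counting error of single genes could only be estimated.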
